A study of Mus musculus with 24 samples.

Results

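The genes described here encode the beta subunits of the sodium-potassium ATPase, Atp1b1, Atp1b2 and Atp1b3. They were taken by symbol from a named list of pump subunit genes and make up 3 of the 52636 identifiers in the count tables. All 3 passed the filter on low counts and are among the 19726 genes tested. Brain RNA was sequenced in 24 libraries, 6 in each of 4 groups, in a study of the glutamate transporter EAAT2, the product of Slc1a2, in astrocytes and neurons. The extraction protocol gives 6 mice for each group, which is followed here, while the short design text speaks of 6 mice over the 4 groups. If libraries shared mice, each n and p-value would cover the spread between libraries and not between animals. In the syn line, Cre+ mice were EAAT2−/− and Cre- mice were EAAT2+/+. In the gfap line, Cre+ mice were EAAT2Δ/+, which leaves 1 intact allele, and Cre- mice were EAAT2+/+. The series title assigns astrocytic and neuronal deficiency to the study, and the cell type label of each library, Syn or Gfap, names its Cre line. The source label of every library is brain, and the RNA was purified with a kit for lipid-rich tissue. No source used here gives age, sex, brain region or strain. The syn Cre+ group carries a full deletion and the gfap Cre+ group a deletion of 1 allele. The Cre contrasts of the lines thus differ in dose of the deletion as well as in cell type.

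The sodium-potassium ATPase exports sodium and imports potassium across the plasma membrane at the cost of ATP. The sodium gradient it builds drives the uptake of glutamate by EAAT2 and its relatives, and the pump also takes part in the removal of potassium after neuronal firing. A catalytic alpha subunit carries the ions and splits ATP, and a glycosylated beta subunit with a single membrane span is needed to fold the pump and bring it to the membrane. Atp1b1 is the main beta subunit of neurons, Atp1b2 is known as the adhesion molecule on glia and is typical of astrocytes, and Atp1b3 is expressed in many tissues.

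In the GENCODE M21 annotation of GRCm38, Atp1b1 (ENSMUSG00000026576) lies on the minus strand of chromosome 1 from 164437109 to 164458355, with 4 transcripts of up to 6 exons. Its exons cover 3081 bases, and 575 of them (18.7%) overlap exons of Nme7, a gene on the opposite strand. Atp1b2 (ENSMUSG00000041329) lies on the minus strand of chromosome 11 from 69599736 to 69605942, with 5 transcripts of up to 7 exons covering 4085 bases. Atp1b3 (ENSMUSG00000032412) lies on the minus strand of chromosome 9 from 96332655 to 96364442, with 3 transcripts of up to 7 exons covering 2389 bases. Neither Atp1b2 nor Atp1b3 overlaps another annotated gene among the identifiers in the count tables, the only ones searched.

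The 250 bases before the annotated transcription start are printed for Atp1b1, the member that differed most between the lines, and for Atp1b3, and those of Atp1b2 are not shown. The sequences come from RefSeq on GRCm38.p6, read 5′ to 3′ along the gene, which is the minus strand in each case: chr1:164458356-164458605 for Atp1b1, chr9:96364432-96364681 for the first start of Atp1b3 and chr9:96363716-96363965 for its second start. Capitals mark matches, on either strand, to the GC box (letters GGGCGG), to the letters CCAAT, to the E-box (letters CACGTG) or to TATATA, and a match on the opposite strand appears as the reverse complement.
Atp1b1: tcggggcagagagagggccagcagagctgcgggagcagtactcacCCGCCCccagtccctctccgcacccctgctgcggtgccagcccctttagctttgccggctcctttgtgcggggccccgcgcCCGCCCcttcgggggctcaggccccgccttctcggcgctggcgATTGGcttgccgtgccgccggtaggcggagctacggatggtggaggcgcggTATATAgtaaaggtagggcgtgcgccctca
Atp1b3, first start: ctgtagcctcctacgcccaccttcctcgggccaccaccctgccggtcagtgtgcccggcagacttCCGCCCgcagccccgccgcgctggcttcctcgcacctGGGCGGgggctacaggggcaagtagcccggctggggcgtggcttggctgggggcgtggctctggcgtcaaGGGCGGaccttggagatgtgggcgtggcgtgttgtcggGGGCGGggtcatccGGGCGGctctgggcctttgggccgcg
Atp1b3, second start: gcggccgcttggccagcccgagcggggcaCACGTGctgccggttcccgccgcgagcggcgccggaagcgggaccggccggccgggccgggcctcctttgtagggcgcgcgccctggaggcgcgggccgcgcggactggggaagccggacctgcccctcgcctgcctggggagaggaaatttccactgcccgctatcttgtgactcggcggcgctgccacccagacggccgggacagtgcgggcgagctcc
The Atp1b1 window held 2 GC boxes, both on the opposite strand, 1 CCAAT on the opposite strand at 81 to 77 bases before the start and TATATA at 30 to 25 bases before it. The first Atp1b3 window held 5 GC boxes, 4 of them on the gene's own strand and the nearest at 26 to 21 bases before the start. Its second window held 1 E-box, at 221 to 216 bases before the start, and no GC box. Over 32851 mouse promoter windows searched the same way with the 50 bases after the start left out, 32.7% held at least 1 GC box, 8.47% held 3 or more, 33.8% CCAAT, 6.02% the E-box and 5.25% TATATA. None of the 3 windows held TGACGTCA, the cyclic AMP response element, or TATAAA, the TATA box, which are found in 1.55% and 12.4% of the windows. The GC content of the windows was 70.4% for Atp1b1, 73.6% for the first and 76.8% for the second Atp1b3 start, against a median of 52.4% and a 90th percentile of 69.2% over all windows. The motifs do not overlap one another in these windows. A match describes the letters of the window and is no evidence that a factor binds there.

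Counts assigned to genes summed to between 41596313 and 69652824 per library. Slc1a2, the gene deleted by Cre, was measured at 3012 ± 213 CPM (counts scaled to the size of the library, SD, n = 6) in the syn Cre+ group and 3322 ± 98.7 in the syn Cre- group. In the gfap line it was at 3480.3 ± 290.1 CPM in Cre+ mice and 3518 ± 542 CPM in Cre- mice. The edgeR log2 fold change of Slc1a2 for Cre was -0.14 in the syn line and -0.02 in the gfap line (quasi-likelihood test, adjusted p = 1.0 in both). The Cre labels are therefore not shown by a called change of Slc1a2, whose counts take in the whole gene and not the deleted stretch alone. Markers of neurons, astrocytes and oligodendrocytes were detected in every group, and 3 of 4 cerebellar markers stayed below 1 CPM on average. The share of reads outside annotated genes was 7.52% to 11.1% in the syn line and 4.47% to 6.37% in the gfap line. The 11.1% came from syn Cre- replicate 5, and the other syn libraries reached at most 8.63%. That library also had the most ambiguous (7.46%) and unaligned reads (4.71%), the fewest counts in genes and the highest syn Atp1b1 level. Without it Atp1b1 was still called lower in syn than in gfap among Cre- mice (log2 -0.28, edgeR adjusted p = 0.000107). In 3 libraries of each syn group, and in no gfap library, the choroid plexus gene Ttr exceeded 1000 CPM. Line, labelled cell type and any difference in handling between the lines cannot be told apart, so a syn against gfap difference carries all of them.

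Per kilobase of exon, Atp1b1 was the most abundant beta transcript, at 537 CPM per kb on average over the 24 libraries. Atp1b2 stood at 111 and Atp1b3 at 41.0 CPM per kb. By this level Atp1b1 ranked 33 of the 19682 tested genes with an exon length (the top 0.168%), Atp1b2 ranked 288 (1.46%) and Atp1b3 ranked 1081 (5.49%). The lowest count of each gene in any library was 63939 for Atp1b1, 18378 for Atp1b2 and 3913 for Atp1b3, which gives a counting error of 0.395%, 0.738% and 1.6%. The spread between mice of a group was larger than this. Its coefficient of variation ran from 2.95% to 6.51% for Atp1b1, from 3.83% to 7.15% for Atp1b2 and from 5.07% to 8.20% for Atp1b3.

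The first question was whether loss of EAAT2 in either line went with a change in the beta subunits. None of the 3 genes changed with Cre in the syn line or in the gfap line, in comparisons that called 0.00507% and 0.0101% of the genes tested. The 95% intervals held every Cre difference of the 3 genes to within 13.0% of the Cre- level in either direction. Because whole tissue was measured, fewer cells of a type and less RNA per cell cannot be told apart.

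Atp1b1 was measured at 1545, 1520.1, 1493, 1484, 1434 and 1555 CPM in the 6 syn Cre+ libraries and at 1509, 1412, 1519, 1545, 1582 and 1488 CPM in the 6 syn Cre- libraries. The groups overlapped almost fully, with means of 1505 ± 44.4 and 1509 ± 57.4 CPM (SD, n = 6). The log2 fold change for Cre was -0.004 with an SE of 0.04, a change of -0.264% with an interval of -6.44% to 6.32% (edgeR adjusted p = 1.0). In the gfap line the values were 1839, 1646, 1974, 1761, 1837 and 1701 CPM in Cre+ mice and 1745, 1729, 1901, 1947, 1782 and 1789 CPM in Cre- mice. Here too the groups overlapped, at 1793 ± 117 and 1816 ± 88.2 CPM, and the fold change was -1.25% with an interval of -7.37% to 5.27% (edgeR adjusted p = 1.0). The single highest library was a gfap Cre+ mouse and the lowest a syn Cre- mouse.

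Atp1b2 had the smallest spread of the 3 over all 24 libraries, a coefficient of variation of 5.59%, against 10.3% for Atp1b1 and 8.42% for Atp1b3. Its values were 461, 429.8, 458, 472, 495 and 442 CPM in syn Cre+ libraries and 459, 468, 398, 438, 481 and 485 CPM in syn Cre- libraries. They were 435, 446, 439, 471, 475 and 466 CPM in gfap Cre+ libraries and 434, 484, 429, 418, 460.4 and 410.2 CPM in gfap Cre- libraries. All 4 groups overlapped, and their means ran from 439 ± 27.8 CPM in gfap Cre- to 459.6 ± 22.8 CPM in syn Cre+ (SD, n = 6). Cre went with a difference of 1.09% in the syn line (interval -5.84% to 8.53%) and of 3.59% in the gfap line (interval -3.51% to 11.2%), with an edgeR adjusted p of 1.0 in both.

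Atp1b3 was measured at 100.3, 109.6, 98.2, 95.3, 114 and 113 CPM in syn Cre+ libraries and at 93.6, 98.6, 105, 105, 96.8 and 105 CPM in syn Cre- libraries. In gfap Cre+ libraries it stood at 92.3, 96.5, 95.3, 104, 94.5 and 84.5 CPM, and in gfap Cre- libraries at 86.2, 88.9, 82.6, 104, 94.4 and 95.1 CPM. In the syn line 3 of 6 Cre+ mice lay above every Cre- mouse, and the others were mixed among them. The Cre difference was 4.14% in the syn line (interval -3.98% to 13.0%) and 2.92% in the gfap line (interval -5.12% to 11.6%), with an edgeR adjusted p of 1.0 in both.

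The Cre effects of the lines were then compared with each other, in a contrast that called 0.0101% of genes. The difference of the log2 changes, syn minus gfap, was 0.01 for Atp1b1 (interval -0.12 to 0.14), -0.04 for Atp1b2 (interval -0.18 to 0.11) and 0.02 for Atp1b3 (interval -0.15 to 0.18). No member passed the test (edgeR adjusted p = 1.0 for each). Differences this small changed sign in some alternatives, which are given with the closing observations.

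**Figure D1:**
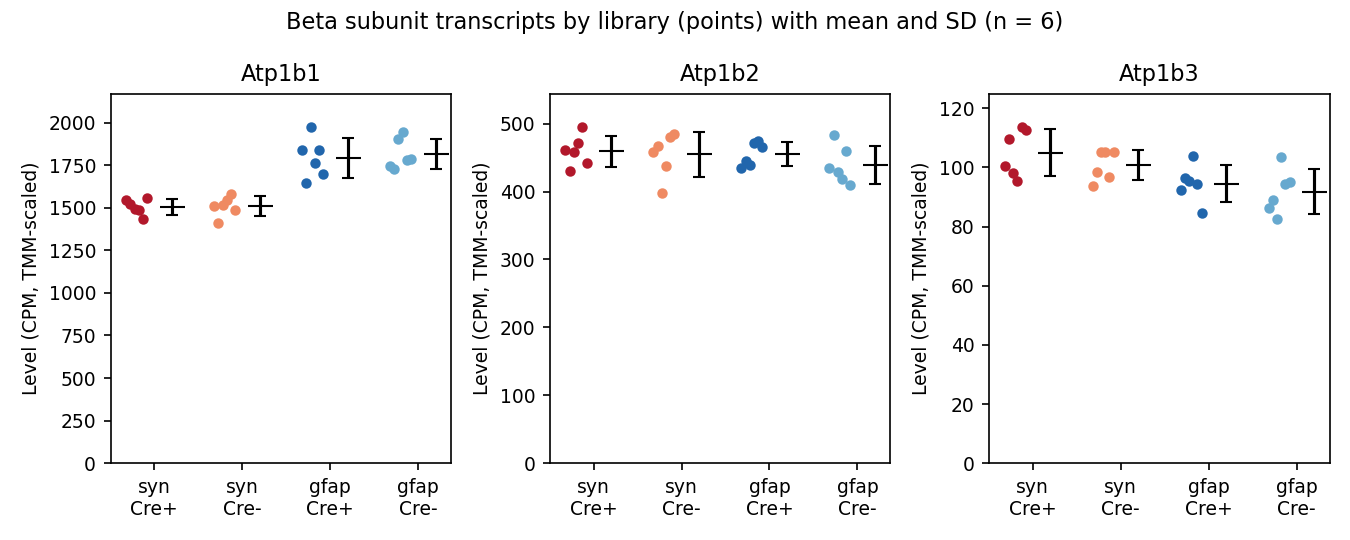
Level of Atp1b1, Atp1b2 and Atp1b3 in CPM (vertical axes, starting at 0) in each library, by group, with the group mean and SD (n = 6) beside the points. The syn groups of Atp1b1 lie between 1412 and 1582 CPM, below the gfap groups between 1646 and 1974 CPM, while the groups of Atp1b2 and of Atp1b3 overlap.

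The lines themselves differed in Atp1b1, in comparisons where 31.2% of all genes were called among Cre- mice and 27.5% among Cre+ mice. Atp1b1 was 16.9% lower in the syn than in the gfap line among Cre- mice and 16.1% lower among Cre+ mice. All 12 syn libraries, at most 1582 CPM, lay below all 12 gfap libraries, at least 1646 CPM. Atp1b2 did not pass the test in either comparison, and Atp1b3 was slightly higher in the syn line and passed it among Cre+ mice alone. The Cre- and the Cre+ comparison share no library, though they share 1 fit.

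Among Cre- mice, Atp1b1 fell by 0.27 on the log2 scale in the syn line relative to the gfap line (SE 0.04, interval -22.0% to -11.4%, edgeR adjusted p = 0.000103). Among Cre+ mice it fell by 0.25 (SE 0.04, interval -21.3% to -10.5%, edgeR adjusted p = 0.000222). Of all genes tested, 16.6% were called lower in the syn line among Cre- mice and 14.7% among Cre+ mice. Of the 3 members, 1 was called among Cre- mice (Atp1b1, lower) and 2 among Cre+ mice (Atp1b1 lower, Atp1b3 higher). With so few genes this cannot be set apart from the 31.2% and 27.5% of all genes called in either direction. In size, 0.27 and 0.25 stand above the median absolute log2 change of all genes, 0.19 and 0.18. Groups that do not overlap, lower in the syn line, were found for 5.43% of genes among Cre- mice and 7.64% among Cre+ mice. All 12 syn libraries lay below all 12 gfap libraries for 420 genes (2.13%). Another scaling moves the split of called genes: the share called higher in the syn line was 46.8% with TMM, 52.8% with the DESeq2 size factors and 58.5% with upper-quartile scaling among Cre- mice, and 46.5%, 58.0% and 65.5% among Cre+ mice. Atp1b1 was called lower under each of them.

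Atp1b2 differed between the lines by 3.48% among Cre- mice (interval -3.61% to 11.1%, edgeR adjusted p = 0.477). Among Cre+ mice the difference was 0.979% (interval -5.94% to 8.41%, edgeR adjusted p = 0.866). Differences of the size seen for Atp1b1 lie outside both intervals.

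Atp1b3 was 9.79% higher in the syn line among Cre- mice (log2 0.14, SE 0.06, interval 1.22% to 19.1%), with an edgeR adjusted p of 0.0726. Among Cre+ mice it was 11.1% higher (log2 0.15, SE 0.06, interval 2.43% to 20.5%), with an edgeR adjusted p of 0.0478. Of all genes, 14.6% and 12.8% were called higher in the syn line in these comparisons. In each comparison 3 of 6 syn libraries lay above every gfap library. These are the 3 libraries of each syn group with Ttr above 1000 CPM. Without these 6 libraries the difference was 0.09 on the log2 scale among Cre- mice (edgeR adjusted p = 0.383). Among Cre+ mice it was 0.08 (edgeR adjusted p = 0.453). Since the libraries left out held the highest Atp1b3 of each syn group, the difference had to shrink. Only 3 libraries were left in each syn group, so these fits are no test of the line difference. The call among Cre+ mice was also lost without syn Cre+ replicate 2, 5 or 6 or gfap Cre+ replicate 1, 3, 5 or 6, with log2 values of 0.13 to 0.18 over all mice left out in turn.

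**Figure D2:**
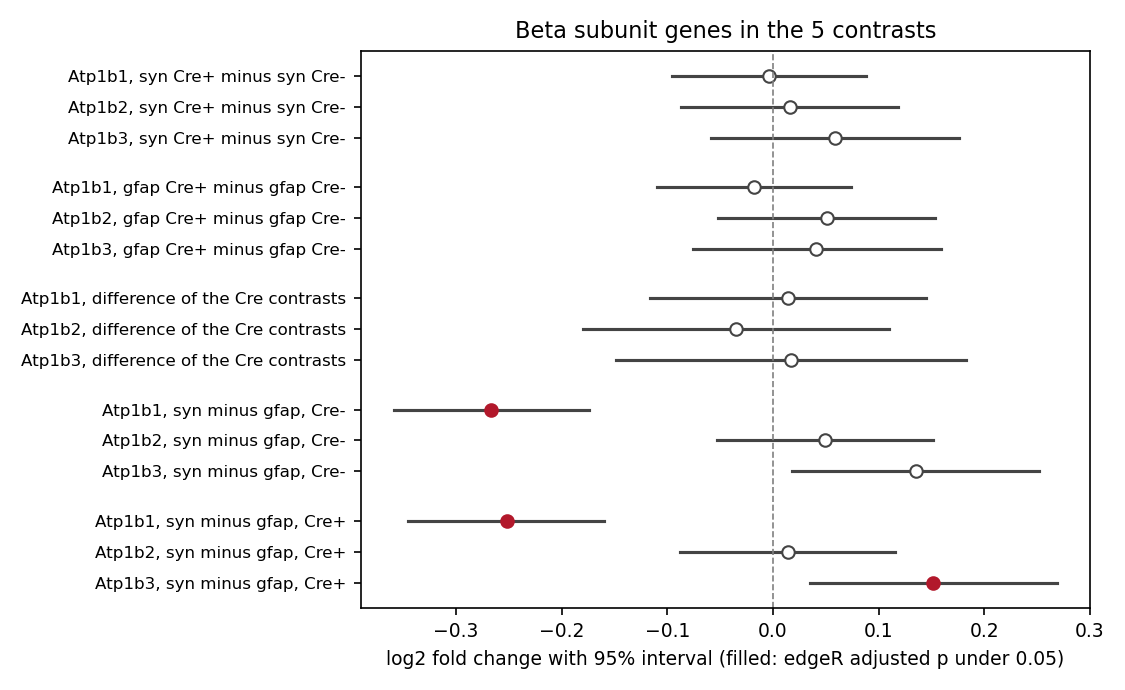
Log2 fold change of each beta subunit gene with its 95% interval (horizontal axis) in the 5 contrasts, with filled points where the edgeR adjusted p is under 0.05. Both line contrasts of Atp1b1 lie left of 0, at -0.27 and -0.25, and all 9 intervals of the Cre contrasts and their difference span 0.

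Nme7, whose exons overlap those of Atp1b1 on the other strand, stood at 9.97 to 13.9 CPM in the 24 libraries, far under Atp1b1. It was also lower in the syn line, by 0.17 on the log2 scale among Cre- mice (edgeR adjusted p = 0.0467) and by 0.23 among Cre+ mice (edgeR adjusted p = 0.00762). No source used here states whether the counting used strand, so how reads from the shared bases were counted is not known.

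The make-up of the beta pool was described by dividing each gene's CPM by its exon length and taking shares of the sum of the 3. Atp1b1 made up 75.7% ± 1.20 in syn Cre+, 76.1% ± 1.20 in syn Cre-, 79.4% ± 1.27 in gfap Cre+ and 80.1% ± 1.25 in gfap Cre- libraries (SD, n = 6). Every syn library, at most 77.7%, lay below every gfap library, at least 78.1%. Atp1b2 made up 17.5%, 17.3%, 15.2% and 14.7% in the same order of groups, and the lines overlapped, with syn values of 15.3% to 19.1% and gfap values of 13.2% to 16.5%. Atp1b3 made up 6.81%, 6.56%, 5.40% and 5.23%, and its lowest syn share, 6.03%, lay just above its highest gfap share, 5.94%. The shares restate the levels above and were not tested.

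The ratio of Atp1b1 to Atp1b3 per length was 11.2 ± 0.906 in syn Cre+ and 11.6 ± 0.747 in syn Cre- libraries, and 14.8 ± 1.26 and 15.4 ± 1.28 in gfap Cre+ and gfap Cre- libraries. The highest syn ratio was 12.7 and the lowest gfap ratio 13.2. The ratio of Atp1b2 to Atp1b1 was 0.231 and 0.228 in the syn groups and 0.192 and 0.183 in the gfap groups. Since a ratio within a library does not depend on how libraries are scaled, the shift of the pool away from Atp1b1 in the syn line is free of the choice of scaling. The sum of the 3 genes was 645 ± 10.8 and 643 ± 19.2 CPM per kb in the syn groups and 733 ± 37.2 and 735 ± 26.5 CPM per kb in the gfap groups.

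**Figure D3:**
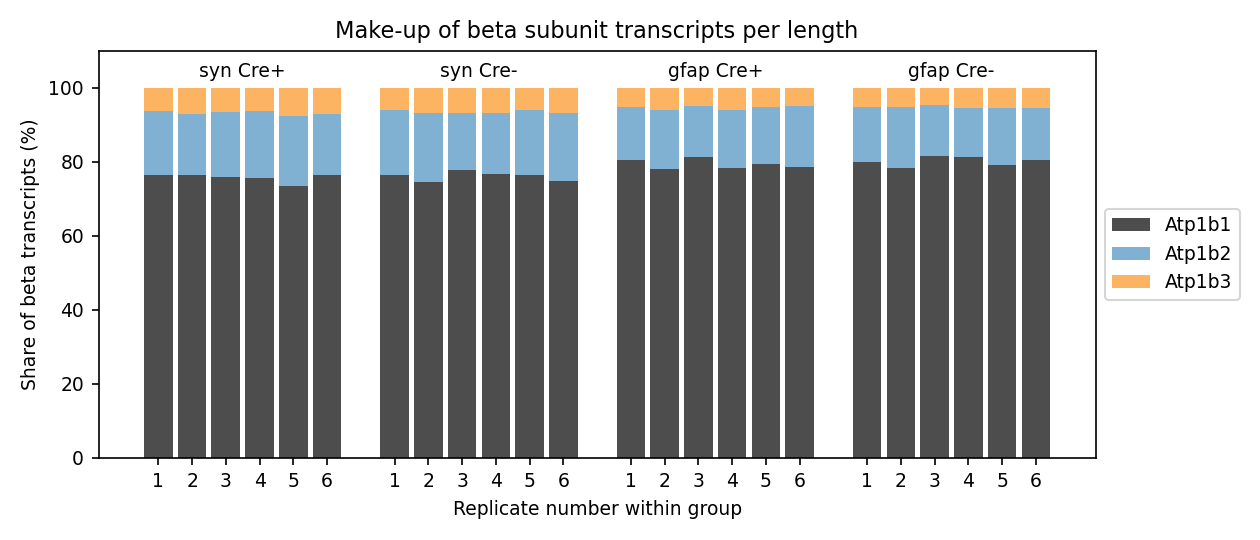
Share of Atp1b1, Atp1b2 and Atp1b3 in the summed beta transcripts per length (vertical axis, percent) for each of the 24 libraries, in 4 blocks of 6 by group. The Atp1b1 part is at most 77.7% in the syn libraries and at least 78.1% in the gfap libraries.

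Markers of several cell types, but not of all, also moved with the line. The comparisons called 31.2% of all genes among Cre- mice (14.6% higher and 16.6% lower in the syn line). Among Cre+ mice they called 27.5% (12.8% higher and 14.7% lower). The summed CPM of 7 neuron markers was 5771 to 6686 in the syn line and 6847 to 8124 in the gfap line, and 6 of 7 were called lower in the syn line among Cre- mice and 5 of 7 among Cre+ mice. Their median log2 change was -0.22 and -0.23, beside -0.27 and -0.25 for Atp1b1. Oligodendrocyte markers moved the other way, with 5 of 6 called higher among Cre- mice and 6 of 6 among Cre+ mice and summed levels of 4986 to 7682 CPM in syn against 3361 to 4959 CPM in gfap libraries. Of 5 endothelial markers, 4 and 5 were called lower. Of 5 microglia markers, 1 and 2 were called lower. In each comparison 1 of 4 mural and 1 of 3 oligodendrocyte precursor markers were called lower, and 0 of 5 meningeal fibroblast markers were called. Of 3 hippocampus markers 2 were called lower in each comparison, with medians of -0.33 and -0.31 and summed levels of 218 to 326 CPM in syn and 275 to 402 CPM in gfap libraries. Cerebellum markers, most of them under 1 CPM, had 0 of 3 called among Cre- and 2 of 3 called higher among Cre+ mice (medians 0.35 and 1.01). Cortex markers had 1 of 3 called lower in each comparison (medians 0.02 and 0.02), and striatum markers had 0 of 5 called in either. All 3 ependymal markers were called higher in both comparisons, with medians of 1.63 and 1.88. The 9 astrocyte markers summed to 2435 to 2772 CPM in syn and 2618 to 2943 CPM in gfap libraries, with 1 called higher and 2 lower among Cre- mice and 2 higher and 2 lower among Cre+ mice. All 8 choroid plexus markers were called higher in the syn line among Cre- mice and 6 of 8 among Cre+ mice. No marker of any list was at 0 in all libraries. The part of these markers in the differences of Atp1b1 and Atp1b3 between the lines was not tested.

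With group means removed, the correlation of Atp1b1 with the mean log2 CPM of the neuron markers was 0.36 over 24 libraries (Spearman 0.29). It was 0.57 over the 12 gfap and -0.01 over the 12 syn libraries. It was 0.07 without the 2 libraries farthest from the median of Atp1b1. Each such value below leaves out the 2 libraries farthest from the median of the member named. The other marker lists were averaged on the log2 scale in the same way. With the hippocampus markers the correlation of Atp1b1 was 0.31 (Spearman 0.38), 0.83 over the syn and -0.10 over the gfap libraries. Without the 2 farthest it was 0.53. With the astrocyte markers it was -0.36 (Spearman -0.39), -0.72 over the syn and -0.16 over the gfap libraries, and -0.46 without the 2 farthest. With the meningeal fibroblast markers it was 0.35 (Spearman 0.26), 0.30 over syn and 0.41 over gfap libraries. With the microglia markers it was 0.23 (Spearman 0.18), 0.67 over gfap and -0.43 over syn libraries. With oligodendrocyte, striatum and cortex markers it was -0.66, -0.64 and -0.59 over syn and -0.02, 0.08 and 0.06 over gfap libraries. For Atp1b2 the correlation was 0.27 with the astrocyte markers (Spearman 0.31), 0.48 over gfap and 0.11 over syn libraries, and 0.37 without the 2 farthest. With the neuron markers it was 0.41 (Spearman 0.45), 0.88 over syn and -0.07 over gfap libraries, and 0.27 without the 2 farthest. With the cortex markers it was 0.46 (Spearman 0.35), 0.63 over syn and 0.16 over gfap libraries, and 0.29 without the 2 farthest. With the hippocampus markers it was -0.4 (Spearman -0.36), -0.6 over syn and -0.03 over gfap libraries, and -0.35 without the 2 farthest. These correlations are descriptions over libraries that share scaling and, within a line, any composition of the tissue sample.

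Atp1b3 moved with RNA of the choroid plexus, the tissue that secretes cerebrospinal fluid into the ventricles and expresses Ttr (transthyretin) at a very high level. The 3 syn Cre+ libraries with Ttr above 1000 CPM, replicates 2, 5 and 6 at 2639.8, 1971 and 4779.8 CPM, had 109.6 to 114 CPM of Atp1b3, and the other 3 had 95.3 to 100.3 CPM. The 3 such syn Cre- libraries, replicates 3, 4 and 6 at 4793, 5015 and 3702 CPM of Ttr, had 105 CPM of Atp1b3 each, and the other 3 had 93.6 to 98.6 CPM. The Ttr-rich libraries thus held the 3 highest Atp1b3 levels of each syn group, an order shown by 464 of the 19726 genes (2.35%). Atp1b1 and Atp1b2 did not show it: their ranges in Ttr-rich and other libraries overlapped in both syn groups. The choroid plexus markers summed to 69.6 to 5100.2 CPM in syn Cre+, 101 to 5368 CPM in syn Cre-, 51.7 to 274 CPM in gfap Cre+ and 51.5 to 204 CPM in gfap Cre- libraries. With group means removed, Atp1b3 correlated with the mean log2 CPM of these markers with 0.64 (Spearman 0.68) over 24 libraries. The correlation was 0.93 over the 12 syn and 0.26 over the 12 gfap libraries. It was 0.72 without the 2 libraries farthest from the median of Atp1b3. Atp1b3 also correlated with the meningeal fibroblast markers with 0.53 (Spearman 0.54), 0.74 over syn and 0.33 over gfap libraries. It correlated with the mural markers with 0.43 (Spearman 0.39) and with the oligodendrocyte markers with 0.44 (Spearman 0.46). Its correlations with the oligodendrocyte precursor and neuron markers were -0.49 (Spearman -0.5) and -0.43 (Spearman -0.41). Without the 6 Ttr-rich libraries the difference of Atp1b1 between the lines was -0.26 among Cre- mice (edgeR adjusted p = 0.00381) and -0.22 among Cre+ mice (edgeR adjusted p = 0.0141).

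**Figure D4:**
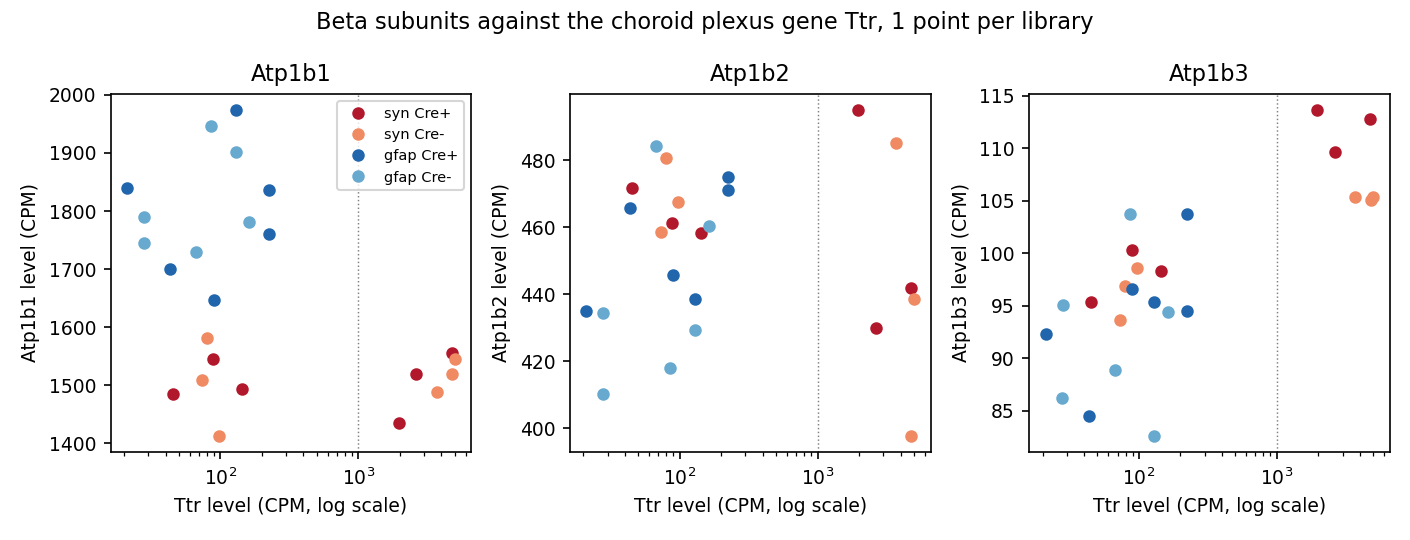
Level of each beta subunit gene in CPM (vertical axes, not starting at 0) against Ttr in CPM (horizontal axes, log scale), 1 point per library and coloured by group, with a dotted line at 1000 CPM. The 6 libraries right of the line hold Atp1b3 levels of 105 to 114 CPM, while their Atp1b1 and Atp1b2 levels lie among those of the other syn libraries or span them.

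The 3 genes did not rise and fall together within groups. With group means removed, the correlation over the 24 libraries was -0.37 for Atp1b1 with Atp1b2 (Spearman -0.42), 0.14 for Atp1b1 with Atp1b3 (Spearman 0.08) and -0.20 for Atp1b2 with Atp1b3 (Spearman -0.19). That of Atp1b1 with Atp1b2 was negative in each group, from -0.78 in syn Cre+ to -0.13 in syn Cre-.

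The genes whose levels followed each member most closely, among 10489 well expressed genes and over the same 24 group-centred libraries, differed between members. For Atp1b1 they were Tpgs2 (0.89), a subunit of the tubulin polyglutamylase complex, Prnp (0.88), the prion protein, Serinc1 (0.85), Prps1 (0.83), an enzyme of nucleotide synthesis, and Ywhah (0.83), an adaptor protein abundant in neurons. All 5 were called lower in the syn line in both comparisons. Their log2 changes ran from -0.36 to -0.19 among Cre- mice and from -0.34 to -0.16 among Cre+ mice. Of all 19726 genes tested, 10.6% were called lower in both. That share was not computed for the 10489 genes searched here. For Atp1b2 they were Grip2 (0.78), a glutamate receptor scaffold, Plpp3 (0.77), a lipid phosphatase of astrocytes, Cacng3 (0.76), an auxiliary subunit of AMPA receptors, Rap1gap (0.75) and the pannexin channel gene Panx2 (0.75). For Atp1b3 they were Clu (0.84), the secreted chaperone clusterin, Tmbim4 (0.84), Nxn (0.83), the redox protein nucleoredoxin, Laptm4b (0.83), a lysosomal membrane protein, and Tmem59 (0.83). These 5 were chosen over all 24 libraries. Their correlation with Atp1b3 was 0.84 to 0.92 over the 12 syn and 0.77 to 0.83 over the 12 gfap libraries of those 24. The genes like Atp1b2 and Atp1b3 did not all differ between the lines in the same direction. Grip2 was called higher in syn among Cre- mice (log2 0.33). Plpp3 was called lower in both comparisons (-0.18 and -0.16) and Panx2 among Cre+ mice (-0.20). Of the genes like Atp1b3, Laptm4b alone was called, lower among Cre- mice (-0.19). Among the same mice Clu, Tmbim4 and Tmem59 stood at -0.03, -0.09 and -0.06, and Nxn at 0.41.

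Around the pump act small regulators and interactors, the single-span FXYD proteins that tune its ion affinity and the NKAIN proteins that bind its beta subunit. None of the 10 genes tested was called for Cre in either line. Their median log2 change was -0.12 in the syn and 0.003 in the gfap line, beside -0.003 for all genes in both. The 3 with the highest CPM, Fxyd6, Nkain2 and Fxyd7, differed by -0.12, 0.04 and -0.34 for Cre in the syn line and by 0.01, -0.03 and -0.14 in the gfap line (edgeR adjusted p = 1.0 for each). Between the lines, 3 of 10 were called higher and 1 lower in syn among Cre- mice, where 14.6% of all genes were called higher and 16.6% lower (median -0.10, all genes -0.02). Among Cre+ mice 0 were higher and 2 lower, where 12.8% of all genes were called higher and 14.7% lower (median -0.05, all genes -0.02).

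Fxyd1, or phospholemman, was at 27.4 ± 6.20 CPM in syn Cre- and 18.7 ± 2.40 CPM in gfap Cre- libraries (SD, n = 6), a log2 difference of 0.55 (edgeR adjusted p = 0.0129). Without the Ttr-rich libraries it was 0.27 (edgeR adjusted p = 0.112). Fxyd5, or dysadherin, was at 9.59 ± 2.00 against 5.82 ± 0.680 CPM, a log2 difference of 0.72 (edgeR adjusted p = 0.000118), and of 0.84 without the Ttr-rich libraries. Fxyd3 was called at levels under 1 CPM (log2 0.88, edgeR adjusted p = 0.0153) and lost its call without those libraries (adjusted p = 0.119). Nkain2 was lower in the syn line among Cre- mice, at 59.6 ± 2.57 against 69.2 ± 6.17 CPM (log2 -0.22, edgeR adjusted p = 0.00415). Among Cre+ mice it stood at -0.15 (edgeR adjusted p = 0.0472), a call lost with 10 of the 12 mice left out in turn and under every other alternative run except no filter (adjusted p = 0.11 with DESeq2 size factors and 0.171 with upper-quartile scaling). Fxyd6 was lower among Cre+ mice, at 82.7 ± 8.84 against 104.6 ± 16.3 CPM (log2 -0.34, edgeR adjusted p = 0.025), a call lost with 6 of the 12 mice left out in turn, with upper-quartile scaling (adjusted p = 0.0544), with title prefixes in limma-voom (0.0579) and without the Ttr-rich libraries (log2 -0.19, adjusted p = 0.417). Of 4 related pump subunit genes, Atp1b4, Atp4b and Atp12a were too low to test, and Atp4a, the catalytic subunit of the gastric proton pump, stayed between 0.27 and 1.26 CPM with no call.

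The carriers and channels that use or restore the ion gradients formed the next list, of 12 genes. None was called for Cre in either line, with a median log2 change of 0.002 in both. The highest CPM besides that of Slc1a2 were those of Slc1a3, the astrocytic transporter GLAST, at -0.06 in the syn and 0.05 in the gfap line, and Slc12a5, the neuronal potassium-chloride cotransporter KCC2, at -0.04 and -0.06 (edgeR adjusted p = 1.0 for each). Between the lines 1 was called higher and 2 lower in syn among Cre- mice (median -0.10), and 2 higher and 4 lower among Cre+ mice (median -0.11), beside 14.6% and 16.6%, and 12.8% and 14.7%, of all genes.

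Slc1a1, the neuronal glutamate transporter, was lower in the syn line in both comparisons. It was at 110.1 ± 3.96 CPM in syn Cre- against 131 ± 6.45 CPM in gfap Cre- libraries (log2 -0.25, edgeR adjusted p = 9.24e-05) and at 112.1 ± 5.70 against 134 ± 3.09 CPM in Cre+ libraries (log2 -0.26, edgeR adjusted p = 7.68e-05). Its groups did not overlap, with a highest syn value of 118 CPM and a lowest gfap value of 123 CPM, a separation found for 2.13% of all genes. Slc12a2, the cotransporter NKCC1 that is also abundant in choroid plexus, rose in the syn line by 0.53 among Cre- and 0.61 among Cre+ mice (edgeR adjusted p = 0.00166 and 0.00069) and by 0.32 and 0.41 without the Ttr-rich libraries. Slc8a2, a sodium-calcium exchanger, was lower among Cre- mice (log2 -0.20, edgeR adjusted p = 0.0327), a call lost with 5 of 12 mice left out in turn, with upper-quartile scaling (adjusted p = 0.074), with the 1 CPM filter (0.0866), with the groups compared alone (0.0888) and without the Ttr-rich libraries (0.206). Among Cre+ mice Slc1a3 was lower at 653 ± 35.0 against 765 ± 21.3 CPM (log2 -0.23, edgeR adjusted p = 0.0011). The remaining calls among Cre+ mice were each lost with 8 of the 12 mice left out in turn: Slc1a2 at -0.21 (edgeR adjusted p = 0.044), the potassium channel genes Kcnj10 at 0.20 (edgeR adjusted p = 0.046) and Kcnj16 at -0.32 (edgeR adjusted p = 0.0365). Slc1a2 and Kcnj16 were also not called with DESeq2 size factors (adjusted p = 0.0912 and 0.0583), with upper-quartile scaling (0.131 and 0.0775) or without the Ttr-rich libraries (0.39 and 0.265), and Kcnj10 and Kcnj16 were not called with no filter (0.0829 and 0.0626). The 1 CPM filter also ended the calls of Slc1a2 (adjusted p = 0.139) and Kcnj16 (0.0772), and DESeq2 that of Slc1a2 (0.0825).

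Calcium pumps, the ATPases that clear calcium from the cytosol, gave a list of 8 genes outside sodium transport. None was called for Cre, and the 3 with the highest CPM, Atp2b1, Atp2a2 and Atp2b2, differed by 0.03, -0.03 and -0.08 in the syn line and by -0.03, -0.06 and -0.09 in the gfap line. Between the lines 2 of 8 were called lower among Cre- and 1 of 8 among Cre+ mice, beside 16.6% and 14.7% of all genes, with medians of -0.05 and -0.01. Atp2b1, a plasma membrane calcium pump, was at 997 ± 48.7 CPM in syn Cre- against 1193 ± 70.9 CPM in gfap Cre- libraries (log2 -0.26, edgeR adjusted p = 0.000875) and at -0.20 among Cre+ mice (edgeR adjusted p = 0.00916). Without the Ttr-rich libraries the Cre+ value was -0.15 and no longer called (edgeR adjusted p = 0.109). Atp2a2, the pump of the endoplasmic reticulum, was lower by 0.15 among Cre- mice (edgeR adjusted p = 0.018), a call lost without gfap Cre- replicate 3 or 5, with upper-quartile scaling (adjusted p = 0.0602), with the 1 CPM filter (0.0785) and with the groups compared alone (0.118). Without the Ttr-rich libraries it was -0.09 and not called (adjusted p = 0.302).

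Of 5 astrocyte membrane genes whose products are found near the pump or its astrocytic beta subunit, 1 was called for Cre. It was the only gene called in the syn line (0.00507% of genes tested), in a list chosen with earlier results known. Between the lines 1 of the 5 was called higher and 1 lower in syn among Cre- mice, beside 14.6% and 16.6% of all genes. Among Cre+ mice 2 were called higher and 0 lower, beside 12.8% and 14.7%. Aqp4, the water channel of astrocyte endfeet, rose in the syn line from 140.3 ± 11.1 to 205 ± 15.0 CPM (log2 0.55, edgeR adjusted p = 2.03e-05), while Atp1b2 in the same libraries differed by 0.02. Aqp4 was also higher in the syn line among Cre+ mice, a comparison that shares the syn Cre+ libraries (log2 0.36, edgeR adjusted p = 0.000146). Among Cre- mice Gja1, the astrocytic connexin, was lower in the syn line at 191 to 225 CPM against 224 to 258 CPM (log2 -0.20, edgeR adjusted p = 0.00254). Without the Ttr-rich libraries Gja1 was at -0.14 and not called (edgeR adjusted p = 0.0966). Trpv4, a cation channel that choroid plexus also expresses, was higher by 2.25 among Cre- and 2.07 among Cre+ mice (edgeR adjusted p = 0.0102 and 0.0191). Without the Ttr-rich libraries it was higher by 0.46 and 0.41 and not called (edgeR adjusted p = 0.297 and 0.394). Neither Trpv4 call held with limma-voom (adjusted p = 0.0782 and 0.179), and that among Cre+ mice was also lost without syn Cre+ replicate 6. Each gene called in these lists kept its direction under the other scalings, but not always its call, as given beside each.

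**Figure D5:**
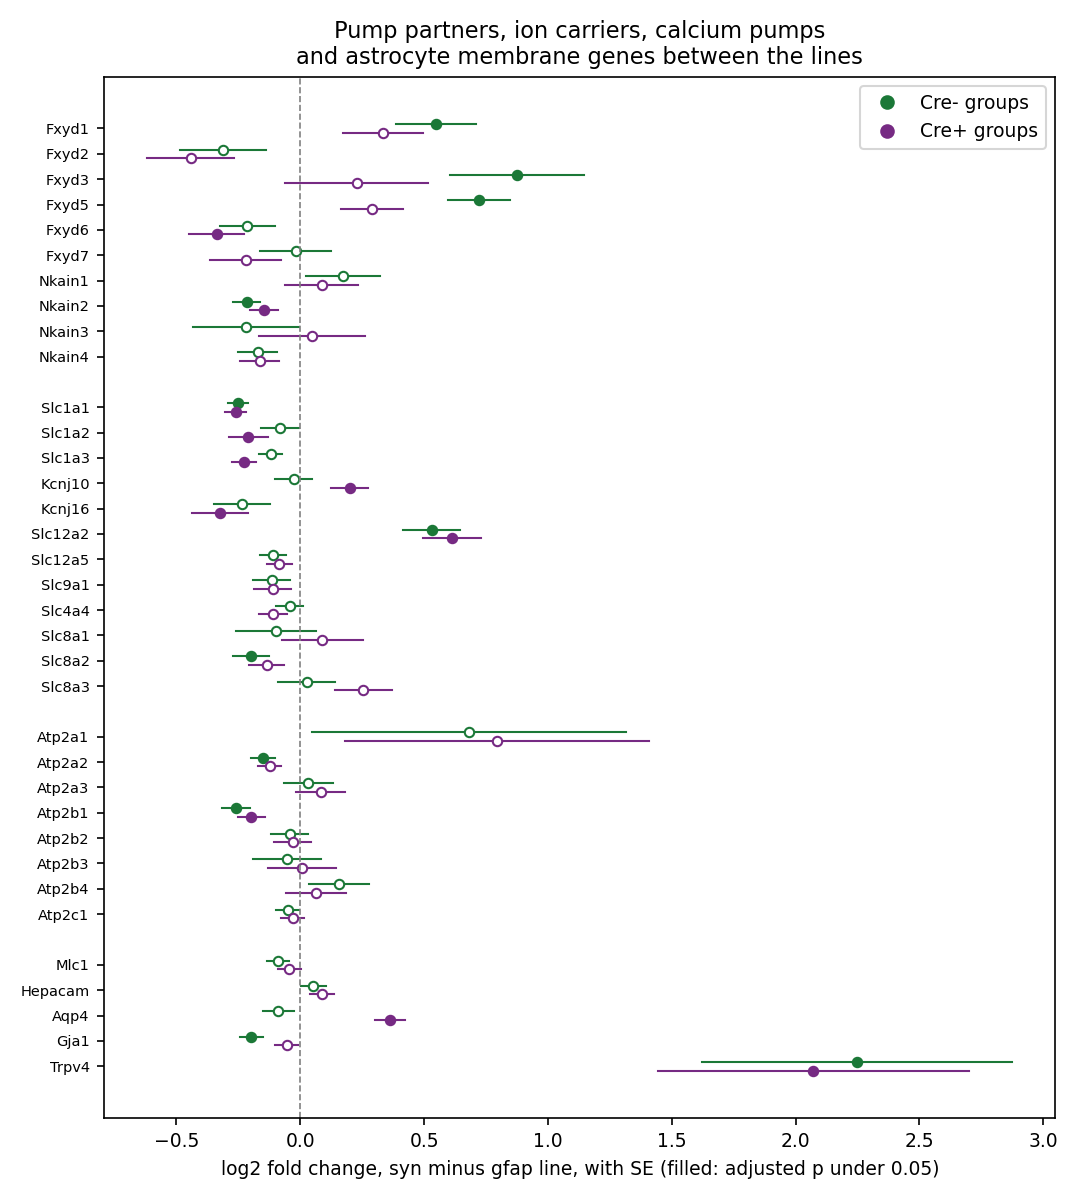
Log2 fold change, syn minus gfap line, with its SE (horizontal axis) for the pump regulators, carriers and channels, calcium pumps and astrocyte membrane genes (rows, blocks from top to bottom), in Cre- (green) and Cre+ (purple) mice, with filled points where the edgeR adjusted p is under 0.05. Slc1a1 and Atp2b1 lie left of 0 and Slc12a2 and Trpv4 right of 0 in both comparisons.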

How the data were processed

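Brain RNA was sequenced in 24 libraries, and each deposited file by the authors holds raw counts per gene with 5 summary lines, which were left out. HISAT2, HTSeq 0.6.0, DESeq2 1.6.3 and mm10 are named per the submitters' processing notes, with HISAT2 version, annotation release and strand setting not given in the sources used here. Reads with more than 1 alignment took 13.7 to 15.6% of the file totals and ambiguous reads 3.19 to 7.46%. The 7.46% was that of syn Cre- replicate 5, and no other library exceeded 3.92%. Groups come from both labels (cell type, genotype), and mice are numbered by accession order within a group. Per the labels' protocols there were 6 mice per group, and each library was taken as 1 mouse. Symbols from GENCODE M21 were found for 52403 identifiers (99.6%); for 74 shared symbols the identifier with the most counts was used.

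The deposited counts were fitted in edgeR 4.0.16 (R 4.3.3) after filterByExpr, with TMM scaling, 1 model of 4 groups, robust quasi-likelihood F tests, 20 residual degrees of freedom and a common dispersion of 0.0198. Adjusted p (Benjamini-Hochberg over 19726 genes) under 0.05 was called, and intervals are 95%. The steps were tested on simulated data. CPM uses TMM library sizes, and correlations use log2 CPM with a prior count of 2. Alternatives were DESeq2 1.42.0, limma-voom (limma 3.58.1) with and without a correlation within title prefixes, DESeq2 size factors, upper-quartile scaling, no filter, at least 1 CPM in 6 libraries, the compared groups alone, no library with Ttr over 1000 CPM, and each library left out. edgeR called 1 gene for Cre in the syn line, 2 in the gfap line and 2 for their difference (unadjusted p under 0.05 in 922, 590 and 691), and DESeq2 called 14, 2 and 3.

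Members and lists were chosen with earlier results of these data known. Genes named are the members, each called gene of a list and otherwise up to 3 with the highest CPM, and the 5 genes most correlated with each member, leaving out provisional names.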

Additional observations from a re-analysis of the deposited data

Results flagged for a closer look

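Of 24 groups of 6 values checked (levels and shares of the members), 1 held a library far from the others. In the syn Cre+ group, the lowest share of Atp1b1 among beta transcripts per length was 73.4% (replicate 5), and the other 5 libraries lay between 75.6% and 76.6%. The same library held the highest Atp1b2 level of the study, 495 CPM, and the highest Atp1b3 level, 114 CPM. Chance gives such a gap in about 1 of 20 groups. Without this library Atp1b3 was no longer called between the lines among Cre+ mice (log2 0.13, edgeR adjusted p = 0.121), and Atp1b1 was still called lower.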

How the results depend on the processing

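The lower Atp1b1 level of the syn line was called under every alternative run, at -0.28 to -0.22 on the log2 scale among Cre- and -0.27 to -0.20 among Cre+ mice. With each mouse left out it ran from -0.28 to -0.23 and from -0.26 to -0.22. Atp1b3 among Cre- mice became called with DESeq2 size factors (0.154), upper-quartile scaling (0.17), the 1 CPM filter (0.178), DESeq2 (0.154) and limma-voom (0.145), and ran from 0.116 to 0.185 with mice left out, called without gfap Cre- replicate 4 alone. Among Cre+ mice its call was lost with no filter (0.135) and without the Ttr-rich libraries (0.0807), and mice left out gave 0.127 to 0.179. No Cre contrast of a member was called under any alternative. Signs of values near 0 turned: Atp1b1 for Cre in the syn line with upper-quartile scaling (0.00295), the 1 CPM filter (0.000122), the groups alone (0.000486) and without Ttr-rich libraries (0.0153); Atp1b2 for Cre in the syn line without Ttr-rich libraries (-0.00706) and between the lines among Cre+ mice with no filter (-0.00319); and Atp1b3 for the difference of Cre effects with limma-voom (-0.00758), title prefixes (-0.00595) and without Ttr-rich libraries (-0.00658). The cause was not tested. Mice left out gave, for Cre in the syn line, -0.0215 to 0.0107 (Atp1b1), -0.0196 to 0.0357 (Atp1b2) and 0.0352 to 0.0852 (Atp1b3), and in the gfap line -0.048 to 0.00215, 0.0316 to 0.0801 and 0.0085 to 0.0768. For the difference they gave -0.00406 to 0.0449, -0.0702 to -0.0149 and -0.0165 to 0.0517, and for Atp1b2 between the lines 0.0284 to 0.0837 (Cre-) and -0.00937 to 0.0435 (Cre+). Without Ttr-rich libraries 3 mice were left in each syn group. No paired analysis was possible because the labels give no replicate numbers that could pair mice across groups. The title prefixes, whose meaning is not given, had a correlation of 0.0281. Depth does not limit the members, whose counting error is under the spread between mice.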
